A study of Homo sapiens with 4 samples.

Results

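The 19q12 region described here ran from base 27700001 to base 34900000 on chromosome 19 of the build hg19, on the long arm next to the centromere. Its members were all H3K9me3 peaks that touched this interval in either of 2 deposited broad peak lists. They were taken by position, but the choice was made with earlier results of these data known. List 1 held 531 of its 326674 peaks on chromosomes 1 to 22 and X there, and list 2 held 620 of 264919. No peak crossed a border of the region.

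The peaks came from chromatin immunoprecipitation and sequencing of U2OS cells, an established human osteosarcoma line, fixed with formaldehyde. Of the 4 samples, 2 were inputs to which no antibody was added and 2 were pulled down with an antibody to H3K9me3 (Abcam, ab8898), and all 4 carried the name KRAB-IDR3-TCF3, which the labels do not explain. The labels tie list 1 to both input samples and list 2 to both antibody samples, while the peak names call both lists immunoprecipitations, so the lists were not assigned to samples. Every value below is therefore that of a list, with no replicate error and no test, read depth is unknown, and no correction was made for DNA copy number.

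H3K9me3 is the histone mark of constitutive heterochromatin. It is bound by HP1 proteins, which recruit further methyltransferase so that the mark can spread over long stretches, and KRAB zinc finger proteins can start it at their target sites. The series title names the local density of the mark as its subject. The region holds 2 genes for developmental zinc finger factors that stand far from other genes. ZNF536 encodes a repressor of neuronal differentiation, and TSHZ3 encodes a teashirt factor needed in smooth muscle and neurons. The region also holds the housekeeping gene UQCRFS1, for the Rieske subunit of respiratory complex III, and CCNE1, for the cyclin E1 of the entry into S phase. The intervals of the genes were 29690001 to 30320000 for the stretch from UQCRFS1 to CCNE1, 30860001 to 31050000 for ZNF536 and 31760001 to 31840000 for TSHZ3. RefSeq on GRCh38.p14, used for names, order and strand only, places VSTM2B, POP4, PLEKHF1 and C19orf12 between UQCRFS1 and CCNE1, URI1 between CCNE1 and ZNF536, no protein-coding gene between ZNF536 and TSHZ3, and 2 (ZNF507 and DPY19L3) between TSHZ3 and PDCD5. From PDCD5 to GPI, a stretch taken from general knowledge to make up most of the part from 33 Mb on, it lists 21 protein-coding genes.

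Promoter sequences are shown for the genes whose intervals are told apart below. No covered share was measured at these windows, and a link between their sequence and the peaks was not tested. Each is the 250 bases before a RefSeq start site on GRCh38.p14, 5′ to 3′ on the gene's strand, with every CG dinucleotide in capitals. All 5 genes looked up had an entry. The windows were not placed on hg19, so they show composition and not the site of a peak.
UQCRFS1 (minus strand): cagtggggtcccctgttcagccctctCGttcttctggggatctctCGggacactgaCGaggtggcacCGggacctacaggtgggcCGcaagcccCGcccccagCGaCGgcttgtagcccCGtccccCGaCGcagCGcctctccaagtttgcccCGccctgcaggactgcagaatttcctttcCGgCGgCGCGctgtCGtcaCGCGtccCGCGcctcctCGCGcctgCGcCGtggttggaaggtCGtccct
CCNE1 (plus strand): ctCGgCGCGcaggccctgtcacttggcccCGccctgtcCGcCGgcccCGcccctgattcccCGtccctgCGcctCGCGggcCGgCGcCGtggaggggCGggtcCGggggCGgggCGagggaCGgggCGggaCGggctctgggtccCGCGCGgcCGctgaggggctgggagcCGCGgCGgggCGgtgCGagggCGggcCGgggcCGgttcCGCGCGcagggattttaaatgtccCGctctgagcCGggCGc
TSHZ3 (minus strand): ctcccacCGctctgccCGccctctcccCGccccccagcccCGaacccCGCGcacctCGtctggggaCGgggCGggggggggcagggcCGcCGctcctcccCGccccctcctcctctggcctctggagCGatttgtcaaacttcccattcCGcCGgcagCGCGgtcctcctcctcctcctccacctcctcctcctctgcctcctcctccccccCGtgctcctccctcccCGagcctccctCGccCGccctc
ZNF536, second start (plus strand): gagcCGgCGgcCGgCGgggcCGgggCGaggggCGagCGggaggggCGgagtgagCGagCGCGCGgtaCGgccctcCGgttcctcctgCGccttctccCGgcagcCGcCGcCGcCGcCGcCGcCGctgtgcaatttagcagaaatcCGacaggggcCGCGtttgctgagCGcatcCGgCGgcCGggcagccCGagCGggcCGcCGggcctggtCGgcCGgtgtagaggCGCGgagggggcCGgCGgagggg
ZNF536, last start (plus strand): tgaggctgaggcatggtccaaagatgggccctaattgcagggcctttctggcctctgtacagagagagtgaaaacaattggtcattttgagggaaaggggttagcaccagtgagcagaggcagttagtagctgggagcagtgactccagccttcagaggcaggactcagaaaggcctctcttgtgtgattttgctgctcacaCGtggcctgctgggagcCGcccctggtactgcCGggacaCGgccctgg

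The UQCRFS1 window held 27 CG, that of CCNE1 39 and that of TSHZ3 21, against a median of 11 over 35116 windows of the same length. At least as many were found in 17.7%, 2.65% and 30.2% of all windows. ZNF536 has 4 start sites in the table, with 17, 41, 21 and 4 CG in their windows. The promoter of CEBPA, a myeloid and adipocyte factor whose gene lies between SLC7A10 and CEBPG in the order from PDCD5 to GPI, held 41. The motif CG reads the same on both strands, and 93.9% of all windows held at least 1.

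Peaks covered most of the region in both lists. List 1 covered 5109 kb or 71.0% of it, and list 2 covered 3889 kb or 54.0%. The rest of chromosome 19 was covered 34.7% and 22.4%, so the region stood 2.05 times higher in list 1 and 2.41 times higher in list 2. Over chromosomes 1 to 22 and X the shares were 45.0% and 25.2%. Without peak-free stretches of at least 1 Mb the ratios to the rest of chromosome 19 were 1.93 and 2.28. The lists shared 3703 kb, equal to 72.5% of what list 1 covered and 95.2% of what list 2 covered. The lowest −log10 p of the authors' peak caller in the region was 1.02 in list 1 and 1.58 in list 2. Its adjusted p-value (q) was 0.05 or less for 4 of 531 peaks in list 1 and 37 of 620 in list 2. Peaks with −log10 q of at least 2 covered 1.09% of the region in list 1 and 2.32% in list 2. The shares of the region given above therefore rest mostly on peaks short of that limit.

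In bins of 100 kb, 39 of the 72 bins of the region were covered over 60% in both lists, against 9.04% of the 30357 bins of chromosomes 1 to 22 and X and 13.3% of those in the rest of chromosome 19. Only 7 bins were covered under 20% in both lists, against 23.2% of bins over the genome, and no bin was without a peak. The median bin was covered 80.7% in list 1 (range 5.998 to 97.9%) and 61.1% in list 2 (3.69 to 95.04%), against genome medians of 45.9% and 20.0%. The longest run of bins over 60% in both lists was 8 bins, from 29200001 to 30000000. Further runs of 6 bins ran from 28300001 to 28900000 and from 30500001 to 31100000, the latter across ZNF536. The profile of covered share along the region shows these plateaus and the dips between them.

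**Figure D1:**
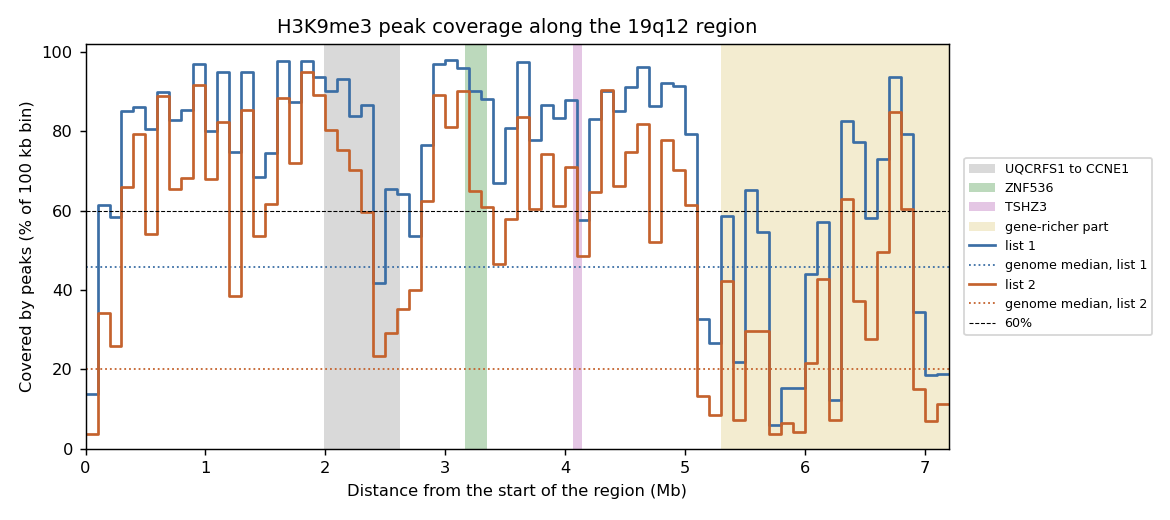
Share of each 100 kb bin under peaks (y, %) by distance from the start of the region (x, Mb), for list 1 and list 2, with the gene intervals and the gene-richer part shaded, the genome medians dotted and 60% dashed. Over the gene-poor part 36 of 53 bins lie above the dashed line in both lists, with dips at its start, before and after CCNE1, at TSHZ3 and over its last 2 bins among others, and inside the gene-richer part they rise again from 12.2% to 82.5% and from 7.16% to 63.0%.

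The region differed between its gene-poor part, up to 33 Mb, and its gene-richer part. The gene-poor part was covered 79.7% in list 1 and 63.0% in list 2. The gene-richer part was covered 46.7% and 29.01%, which made the gene-poor part 1.71 and 2.171 times denser. Over bins, the shares of the gene-poor part averaged 79.7% ± 18.7 (SD over 53 bins) in list 1 and 63.0% ± 22.4 in list 2, against 46.7% ± 28.02 and 29.01% ± 23.4 over 19 bins of the gene-richer part. The ranges of the parts overlapped, and neighbouring bins share peaks and are no replicates. Bins over 60% in both lists numbered 36 of 53 in the gene-poor part and 3 of 19 in the gene-richer part.

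The border at 33 Mb did not mark where the density fell. Ranked by the smaller of the steps in the lists, the largest fall between adjacent bins lay at 32800000, where list 1 went from 79.3% to 32.78% and list 2 from 61.5% to 13.4%. List 1 alone fell slightly further at the bin starting at 33400001, from 54.7% to 5.998%, where list 2 went from 29.67% to 3.82%. The 200 kb from 32800001 to 33000000 were covered 29.74% and 10.9%, well under the rest of the gene-poor part. Inside the gene-richer part the density rose again at 34 Mb, the largest step of the region, with list 1 going from 12.2% to 82.5% and list 2 from 7.16% to 63.0%. It fell past 34600000, from 79.3% to 34.5% and from 60.3% to 15.1%.

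These steps set apart a dense island and the sparse stretches beside it. From 34000001 to 34600000 peaks covered 77.4% in list 1 and 53.8% in list 2, near the 81.6% and 65.0% of the stretch from 27700001 to 32800000. From 32800001 to 34000000 they covered 34.2% and 18.1%, near the 34.7% and 22.4% of the rest of chromosome 19, and from 34600001 to 34900000 24.02% and 11.2%. Without the island the gene-poor part was 2.45 times denser than the gene-richer part in list 1 and 3.59 times in list 2. Beyond the region the first bin was still sparse (18.5% and 7.34%), and the next 5 bins were covered 68.8 to 89.5% in list 1 and 51.8 to 77.9% in list 2. The borders of the island were chosen after the bins had been seen.

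**Figure D2:**
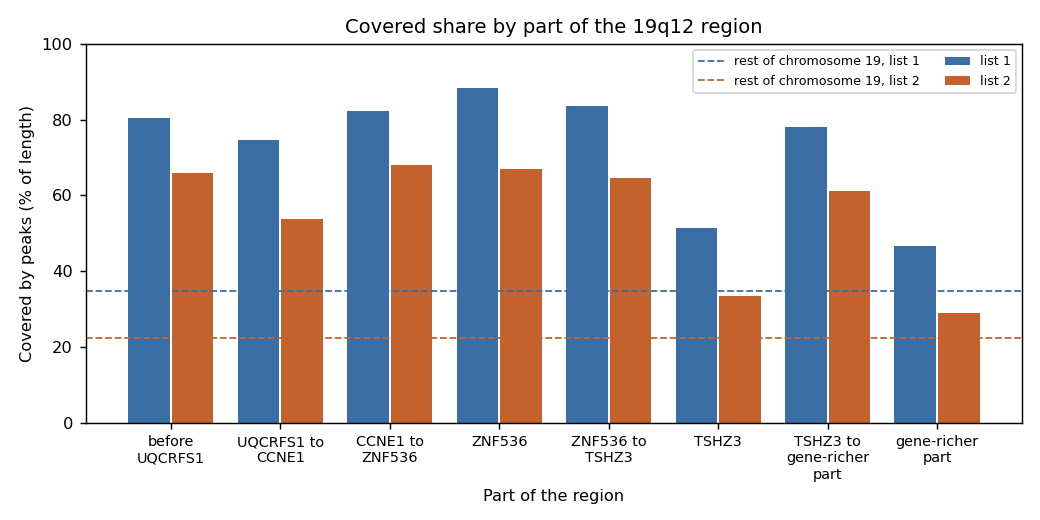
Share of length under peaks (y, %) for the parts of the region in order along the chromosome (x), with list 1 and list 2 as bars and the rest of chromosome 19 as dashed lines. The TSHZ3 interval (51.5% and 33.3%) and the gene-richer part (46.7% and 29.01%) are the lowest bars of each list, and every bar lies above the dashed line of its list.

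Between the centromere and UQCRFS1 lay the peaks with the lowest q of the region. This stretch followed a peak-free stretch of 3.11 Mb that ended at 27732008 in list 1 and 27732221 in list 2. Its first bin was the least covered of the region by the lower list, at 13.7% and 3.69%. From 28 Mb on the bins were covered 68.5 to 97.8% in list 1 and 38.4 to 95.04% in list 2. Over the whole stretch peaks covered 80.5% and 65.9%.

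A q (the p-value of the authors' peak caller, adjusted over its tests) of 0.01 or less was reached by 1 peak of list 1 and 6 peaks of list 2 in the region, all 7 of them before UQCRFS1. On the whole of chromosome 19 this limit was reached by 1 peak of list 1 and 23 peaks of list 2. The peak of list 1, from 28049481 to 28128053, was 78.6 kb wide, with the authors' fold enrichment of 3.46 over the peak caller's background. It was the single peak of list 1 on chromosome 19 at this limit. Over the same place list 2 had a peak of 21.5 kb from 28049212 to 28070719 with the highest fold of the region in that list, 4.45, and another of 55.7 kb from 28072537 to 28128211 with a fold of 4.12. Of the other 4 peaks of list 2, 3 lay between 28137289 and 28235405 (folds 3.67 to 4.18) and the last ran from 29056612 to 29098492 (fold 3.36). At q of 0.05 or less, 3 of the 4 peaks of list 1 and 22 of the 37 peaks of list 2 in the region lay before UQCRFS1. Of all peaks of the region, this stretch held 128 of 531 in list 1 and 153 of 620 in list 2. It makes up 1990 of the 7200 kb of the region.

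Some of the widest peaks ended at the border of a gene interval. In list 1 the widest of the region and of chromosome 19 was 185 kb, from 29507684 to 29692685, which ended within the first 10 kb of the UQCRFS1 to CCNE1 stretch. List 2 held 4 peaks over the same length, which covered 96.7% of it, and the last of these, 65.5 kb wide, ended at 29690629. The next widest of list 1 was 158 kb, from 30634889 to 30793205, and list 2 covered 88.0% of it with 7 peaks. In list 2 the widest was 108 kb, from 28329862 to 28438110, and it ranked 14 in width among all peaks of that list. The others among the 5 widest of each list measured 85.0 to 96.7 kb in list 1 and 57.1 to 66.6 kb in list 2. The 57.1 kb peak, from 30803058 to 30860170, ended at the start of the ZNF536 interval, which need not be the start of the gene.

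Across the stretch from UQCRFS1 to CCNE1 peaks took up 74.6% of the length in list 1 and 53.7% in list 2, lower than over the remainder of the gene-poor part (80.3% and 64.2%), a ratio of 0.929 and 0.836. This mean joined a dense and a broken part. In bins of 10 kb, the 100 kb before UQCRFS1 were covered 100% in list 1 and 98.6% in list 2. The first bin of the stretch, where UQCRFS1 begins in map order, dropped to 37.4% and 6.29%. From 29710001 to 30090000 the share was back at 89.6% and 73.04%.

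The broken part ran from 30090001 to 30320000, with 52.3% covered in list 1 and 23.04% in list 2. POP4, a subunit of RNase P, PLEKHF1, a phosphoinositide-binding protein of endosomes, and C19orf12, a mitochondrial membrane protein, follow VSTM2B and come before CCNE1 in gene order, but their places on hg19 were not analysed here. The bins from 30190001 to 30210000 held no peak in either list, as part of a peak-free stretch of 21.9 kb from 30189342 to 30211213 in list 1. The last 2 bins, at the CCNE1 end, were covered 22.1% and 31.03% in list 1 and held no peak in list 2. List 2 left 9 of the 63 bins of the stretch without a peak and list 1 left 2. Peaks there were also narrow, with a median of 1917 bp in the broken against 13780 bp in the dense part in list 1, and of 1139 against 4532.5 bp in list 2. The borders of the dense and the broken part were chosen after the bins had been seen.

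The next stretch, from CCNE1 to ZNF536, which holds URI1, a prefoldin-like chaperone, was covered 82.2% and 67.9%. Its bin from 30400001 to 30500000 was still low at 53.6% and 39.9%, although the peak of second highest fold of list 1 in the region ended within its first kb, 7.54 kb from 30393228 to 30400763 with a fold of 2.86. From 30600001 to 30900000 all 3 bins were covered at least 95.96% in list 1 and 81.2% in list 2. The last of these, which runs into ZNF536, was among the 5 densest of the region, at 95.96% and 90.04%.

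ZNF536 itself lay under peaks for most of its interval, without an empty 10 kb bin in either list. List 1 covered 88.5% of it and list 2 67.1%. The 100 kb before it were covered 97.9% and 94.9%, and the 100 kb after it 89.2% and 59.0%. Against both flanks together the interval was covered 0.946 times in list 1 and 0.872 times in list 2. When list 1 was limited to peaks at or above the lowest −log10 p of list 2, this ratio was 0.572.

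The lists resolved the gene differently. List 1 had 14 peaks that touched the interval, up to 69.6 kb wide, whereas list 2 had 28, of which 24 were under 10 kb. The highest folds lay among the first peaks of the interval. In list 1 the first 3 peaks had folds of 2.44 to 2.46 and the later ones 1.57 to 2.00. In list 2 the first peak wholly inside, of 347 bp, stood at the lowest fold of that list, 1.90. The peaks from 30866431 to 30872123 and from 30873625 to 30898628 had folds of 3.27 and 2.85, and all later ones lay at or under 2.61. RefSeq gives ZNF536 4 starts on the plus strand. On GRCh38.p14 the windows of the first 3 begin at 30225342 to 30228260, and that of the last begins at 30372134. These starts were not placed on hg19, so the gene may begin before this interval. The 100 kb before the interval may then lie inside the gene.

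Unlike the ZNF536 interval, that of TSHZ3 had a gap over 1 end. List 1 covered 51.5% of it and list 2 33.3%, against 94.4% and 82.8% in the 100 kb before and 88.5% and 86.0% in the 100 kb after. The interval was covered 0.563 times as much as both flanks in list 1 and 0.395 times in list 2, and 0.378 to 0.555 times under the alternatives tried in either list. With list 1 limited to peaks at or above the lowest −log10 p of list 2, its ratio was 0.451, beside 0.572 for ZNF536. No test of the difference from ZNF536 was possible with these lists. The intervals may also hold unlike parts of the genes, since that of ZNF536 may leave out its first starts.

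The gap took in the start of the gene. TSHZ3 is on the minus strand, so the end of the interval at 31840000 is where its transcription begins. From 31760001 to 31790000, the far end of the gene, peaks covered 100% in list 1 and 83.2% in list 2. From 31790001 to 31840000 they covered 22.4% and 3.41%. List 2 had no peak from 31802755 to 31844523, a stretch of 41.8 kb that was the third longest of the gene-poor part in that list. List 1 had 2 peaks in the last 20 kb of the interval, of 1038 and 311 bp, with folds of 1.80 and 1.55. The split at 31790000 was chosen after the bins had been seen.

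**Figure D3:**
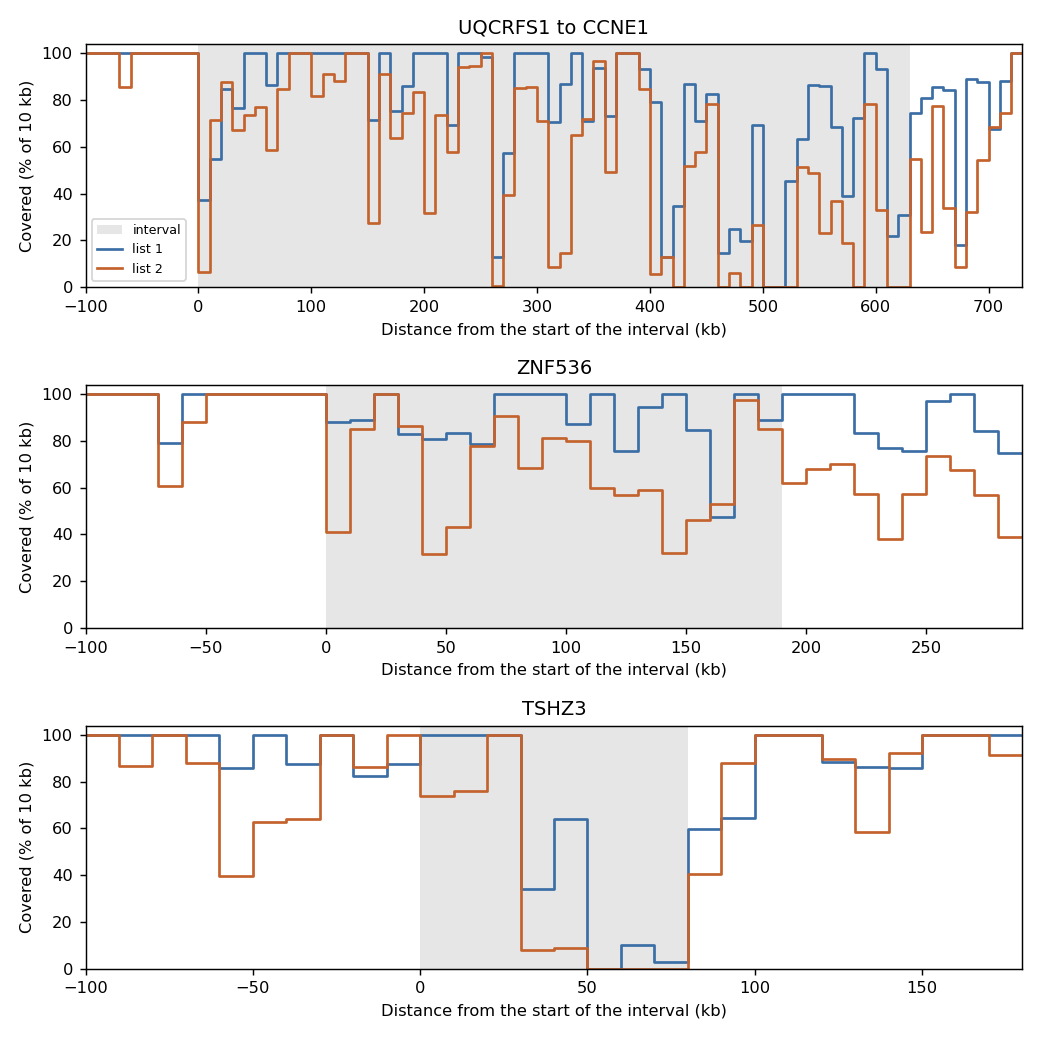
Share of each 10 kb bin under peaks (y, %) by distance from the start of the interval (x, kb), with 100 kb on either side, for the UQCRFS1 to CCNE1 stretch, ZNF536 and TSHZ3 (shaded), list 1 and list 2. The ZNF536 interval has no empty bin, and its least covered bins stand at 47.7% in list 1 and 31.7% in list 2. The TSHZ3 interval falls to 0 between 50 and 60 kb in both lists, and the share rises past its end at 80 kb. The UQCRFS1 to CCNE1 stretch breaks up after 400 kb.

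The stretches on both sides of TSHZ3 were dense. Between ZNF536 and TSHZ3 peaks covered 83.6% in list 1 and 64.6% in list 2. From TSHZ3 to 33 Mb they covered 78.0% and 61.1%, the sparse last 200 kb included. The bin from 32000001 to 32100000, at 90.2% and 90.4%, was the single bin of the region in which list 2 covered more than list 1.

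The 5 densest bins by the lower of the lists were, besides this bin and that before ZNF536, those starting at 28600001, 29500001 and 29600001. The densest, from 29500001 to 29600000, was covered 97.8% and 95.04% and ranked 61 among all 30357 bins of the genome. The 5 sparsest were the first bin beside the centromere and those that started at 33400001, 33500001, 33600001 and 34700001, the latter 4 in the gene-richer part. Of the bin from 33400001 to 33500000, list 1 covered 5.998% and list 2 covered 3.82%. The longest stretches without a peak lay in that part as well, 51.6 kb from 33467469 to 33519048 in list 1 and 111 kb from 33858922 to 33969634 in list 2, and the former held no peak of list 2 either.

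Wide peaks made up most of the covered length of the gene-poor part. Peaks of at least 10 kb held 81.6% of the summed peak width there in list 1 and 63.6% in list 2, and 58.1% and 42.0% in the gene-richer part. Of the 53 peaks of at least 25 kb in list 1, 48 were centred in the gene-poor part, and of the 25 in list 2, 24 were. Of peaks of any width, 350 of 531 in list 1 and 479 of 620 in list 2 were centred in that part, which makes up 5300 of the 7200 kb. The median width was 4070 bp in the gene-poor and 1881 bp in the gene-richer part of list 1, and 3236 and 1902 bp in list 2. Over the region 24.9% of the peaks of list 1 and 16.6% of those of list 2 were at least 10 kb wide, against 7.66% and 7.51% in the rest of chromosome 19.

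**Figure D4:**
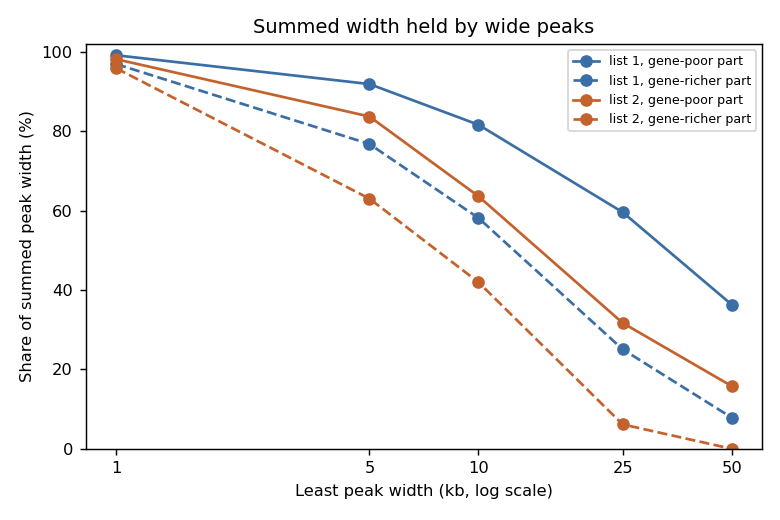
Share of the summed peak width (y, %) held by peaks of at least a given width (x, kb, log scale), for peaks centred in the gene-poor part (solid) and in the gene-richer part (dashed) of each list. At 25 kb the share is 59.6% against 25.1% in list 1 and 31.7% against 6.14% in list 2.

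Fold enrichment differed less than width. The median fold was 1.81 in the gene-poor and 1.65 in the gene-richer part of list 1, and 2.278 and 2.1697 in list 2. Over all peaks of the genome the medians were 1.64 and 2.12, so the gene-richer part lay near them. Wider peaks had higher folds (Spearman's rho 0.694 over 531 peaks of list 1 and 0.589 over 620 of list 2), a description across peaks of the same libraries that are not replicates. Over the region, 69 peaks of list 1 and 43 of list 2 stood at the lowest fold of their list, 1.44 and 1.90.

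When peaks less than 10 kb apart were joined, list 1 gave 40 domains in the region and list 2 gave 63. Domains that reached 100 kb numbered 9 in list 1 and held 6.17 Mb, and the longest spanned 2.41 Mb from 27782401 to 30189341. The latter ended at the peak-free stretch before CCNE1. The next ran 1.34 Mb from 30465472 to 31808422 across ZNF536 into TSHZ3, and the third 1007 kb from 31826453 to 32833758. In list 2, 13 domains held 4.59 Mb. The longest, 0.865 Mb from 31844524 to 32709390, began where the gap over TSHZ3 ended. The lengths depended on the joining distance, and at 3 kb those that reached 100 kb added up to 3.79 Mb (list 1) and 0.987 Mb (list 2).

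The Jaccard index of the lists (shared over total covered length) was 0.699 in the region and 0.547 in the rest of chromosome 19. This index rises with the covered share itself, which was higher in the region, so the values do not compare how well the lists match. It was 0.734 in the gene-poor and 0.536 in the gene-richer part, and 0.811 between CCNE1 and ZNF536. At least 1 bp was shared by 325 of 531 peaks in list 1 (61.2%, with a 95% interval by Wilson's method of 57.0 to 65.3%) and by 583 of the 620 of list 2 (94.0%, 91.9 to 95.6%), intervals that cover counting error only. All peaks of at least 10 kb had a partner, 132 in list 1 and 103 in list 2. Of those in list 1, 110 met 2 or more peaks of list 2. Peaks of list 1 under 1 kb had one in 17 of 112 cases and those of list 2 in 114 of 143.

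Bins ranked alike in both lists, with Spearman's rho of 0.948 and Pearson's r of 0.944 over the 72 bins, which share libraries and wide peaks. List 1 covered more in 71 bins, by a median of 16.5 percentage points. The largest differences lay in the bins starting at 34100001 (77.4% against 37.3%), at 30200001 before CCNE1 (65.5% against 29.1%) and at 28900001 (74.7% against 38.4%). The lists end at different p-values, so the sizes of these differences depend on that limit. With list 1 limited to the 182 of its 531 peaks at or above the lowest −log10 p of list 2, 1.58, it covered 52.9% of the region.

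**Figure D5:**
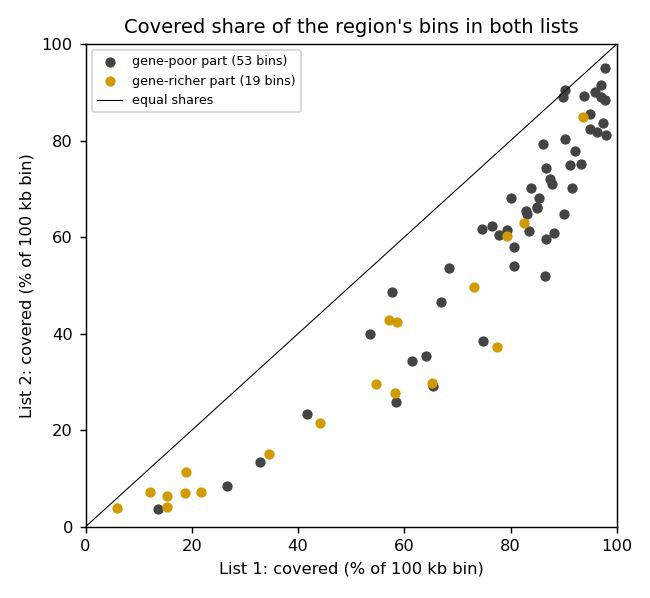
Covered share of each of the 72 bins of 100 kb (%) in list 1 (x) and list 2 (y), with bins of the gene-poor part in grey and of the gene-richer part in yellow. The bins lie along a curve below the line of equal shares, except 1 bin at 90.2% and 90.4%.

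The region was less dense than each of the stretches of other chromosomes set beside it. No measure of similarity was used to pick them. On chromosome 8, bases 135000001 to 141000000 lay under peaks for 93.4% of their length (list 1) and 84.9% (list 2). The shares were 93.2% and 84.1% for bases 106000001 to 110000000 of chromosome 10. They were 87.8% and 75.3% for bases 2000001 to 9000000 of chromosome 5. The gene-poor part of the 19q12 region, at 79.7% and 63.0%, lay below each of them. Median folds there were also higher, 1.99 to 2.07 in list 1 and 2.39 to 2.45 in list 2, than the 1.81 and 2.28 of the gene-poor part. Peaks with q of 0.01 or less were more on 19q12, with 1 in list 1 against 0 in each. In list 2 they were 6 on 19q12 against 4, 0 and 1. At q of 0.05 or less, list 1 held 4 on 19q12 against 2, 0 and 1. In list 2 chromosome 8 then held more, 47 against 37 on 19q12, while chromosomes 10 and 5 held 2 and 25. These counts were not divided by length, which was 7200 kb for 19q12 and 6000, 4000 and 7000 kb for the others. The highest single fold of list 2 on 19q12, 4.45, stood beside 3.66, 3.05 and 3.47. No test of these differences was possible.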

How the data were processed

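H3K9me3 peaks of U2OS cells were read from 2 deposited broad peak lists. Per the submitters' processing notes, the authors' tools were MACS2 2.2.7.1, Bowtie2 2.5.0, Trim Galore 0.6.7 and bcl2fastq 2.17, with the build hg19. For cutoffs, control, duplicates and pooling, the sources used here give nothing. Fold enrichment, as deposited, is a ratio of each peak to the background of the peak caller. The authors' p-value and q-value of each peak stand as −log10 values, and their score, a whole number near 10 times −log10 p, was not used. A peak list holds no reads, so depth is unknown.

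Covered shares were computed from the base pairs under peaks, clipped to each bin or part, in bins of 100 and 10 kb over the region. Widths and folds were summarised by peak centre. The genome comprised chromosomes 1 to 22 and X up to the last peak end. A partner needed 1 bp, and domains joined peaks less than 10 kb apart. Interval functions were tested on simulated data (20 of 20 sets equal to a base-by-base count).

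The bins named were the 5 densest and 5 sparsest by the lower list, the 3 with the largest difference between lists and the 3 largest steps. The peaks named were the 5 widest and the 3 of highest fold per list, with the 3 longest peak-free stretches. Those at q of 0.01 or less, the peaks within ZNF536 and TSHZ3 and the finer borders were chosen after their values had been seen. The members and lists were chosen with earlier results of these data known. Scripts ran in matplotlib 3.10.9, scipy 1.17.1, pandas 2.3.3 and numpy 2.4.6 under Python 3.11.15.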

Additional observations from a re-analysis of the deposited data

How the results depend on the processing

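Of 76 alternative values, 62 kept their direction and stayed within 1.5 times the main value, 14 moved further and 0 turned. No paired analysis was possible because neither list could be matched to a sample, which also means that leaving out a replicate could not be done. With −log10 q of at least 2, peaks covered 1.09% of the region in list 1 and 2.32% in list 2, the ratio of the region to the rest of chromosome 19 was 3.82 in list 2, and that of the UQCRFS1 to CCNE1 stretch to the rest of the gene-poor part was 0 in both lists. Few peaks pass this limit, and no ratio could be had against the gene-richer part, nor against the rest of chromosome 19 in list 1. With a limit of 70% in place of 60%, 24 bins were dense in both lists. Joining peaks less than 3 kb apart gave 18 domains of at least 100 kb in list 1 and 7 in list 2, which held 3.79 and 0.987 Mb in place of 6.17 and 4.59 Mb. Without the island from 34000001 to 34600000, an alternative added after seeing the data, the gene-poor part was 3.59 times as dense as the gene-richer part in list 2. A reciprocal overlap of 50% left 23.5% of the peaks of list 1 and 20.2% of those of list 2 with a partner. The ratio of ZNF536 to its flanks and that of TSHZ3, with their alternatives, were also added after seeing the data. Unknown depth, and lists that end at different p-values, limit the comparison of the lists.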
